A study of Mus musculus with 6 samples.

Results

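Second arch crest mesenchyme was described here as 2363 cells among 35962 that passed the cell filter, in a deposited matrix of 53362 barcodes. Members were chosen by measured UMI counts. A cell was a member if it had at least 2500 detected genes, at most 10% of its unique molecular identifiers (UMIs, 1 per captured RNA molecule) from mitochondrial genes, at least 3 UMIs of Dlx1 plus Dlx2, at least 1 UMI of Twist1 and fewer than 3 of Epcam. It also had at least 2 UMIs of Hoxa2 plus Hoxb2 and none of Hoxa3, Hoxb3 or Hoxd3. The Dlx1, Dlx2, Twist1 and Epcam conditions alone kept 4942 cells, and members were 47.8% of these.

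The study profiled RNA of single cells from the microdissected cardiogenic region of wild type C57BL/6 embryos at E10.5 (embryonic day), a region that takes in pharyngeal tissue around the heart. There were 3 samples from vehicle-pretreated females with normal glycemia and 3 from streptozotocin-pretreated hyperglycemic females, all mated with males of normal glycemia. Streptozotocin destroys insulin-producing cells and is used as a model of maternal diabetes. The sources used here do not say which of the 6 libraries in the pooled matrix belongs to which sample, so vehicle and streptozotocin were not compared, and the matrix was treated as 1 sample without replicate error.

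The pharyngeal arches are paired swellings of the embryonic head and neck that are filled largely by cranial neural crest. Crest of the first arch expresses no Hox gene and builds the jaws, crest of the second arch expresses Hoxa2 and Hoxb2 and builds part of the hyoid and the stapes, and crest of more posterior arches also expresses Hox genes of paralogue group 3. Within an arch, nested Dlx genes mark position from the proximal end, where Dlx1 and Dlx2 are expressed without Dlx5 and Dlx6, to the distal tip, where Hand2, a target of endothelin signalling, is added.

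The markers of the label were present in every library. Values are given as counts per 1000000 UMIs (CPM), from UMIs summed over the cells of a class, with an exact Poisson 95% interval that covers counting error only. Because Hoxa2, Hoxb2, Dlx1, Dlx2 and Twist1 chose the members, their levels are a description. Hoxa2 stood at 78.2 CPM in the members and ranged from 68.2 to 90.2 CPM over the 6 libraries. Hoxb2 stood at 63.0 CPM, with 46.7 to 77.3 CPM over the libraries. Dlx2 stood at 80.2 CPM and Twist1 at 367 CPM. Both Hox genes were detected in 78.3% of members, Hoxa2 alone in 14.0% and Hoxb2 alone in 7.70%.

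The rule cuts through a continuous distribution. Among cells of the Dlx gate without a group 3 Hox UMI, 216 had no Hoxa2 or Hoxb2 UMI, 237 had 1, 353 had exactly 2, 321 had 3 and 431 had 10 or more. Of the members, 419 had exactly 3 UMIs of Dlx1 plus Dlx2 and 29 exactly 1 of Twist1. No gap in Hox UMIs separated the cells just outside the threshold from those just inside. Just outside it, the cells with 1 UMI held Hand2 at 88.0 CPM and Pou3f3 at 14.2 CPM. Just inside, the cells with 2 UMIs held Hand2 at 82.9 CPM and Pou3f3 at 16.7 CPM.

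At least 2 UMIs of Hoxa2 plus Hoxb2 also occurred in cells gated as other cell types. They were found in 18.3% of cardiomyocyte-gated cells (median 43410 UMIs per cell), in 20.1% of endothelium-gated cells (40688 UMIs) and in 4.55% of erythroid-gated cells (65593 UMIs). In the Dlx gate as a whole the share was 87.3%, at a median of 43741 UMIs. The level in those other cells came mostly from Hoxb2, which stood at 15.5 CPM in the cardiomyocyte gate against 3.43 CPM for Hoxa2.

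Both comparison classes came from the same Dlx gate. The 216 Hox-negative cells had no UMI of any of the 5 Hox genes of the rule, and the 1686 Hox3-positive cells had at least 2 UMIs of Hoxa3, Hoxb3 or Hoxd3. The Hox-negative cells are named by this rule and not as first arch. Lhx6, a gene that marks first arch mesenchyme, stood at 0.137 CPM in them and 0.220 CPM in the members, and Pitx1 at 8.92 and 0.764 CPM.

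The 6 libraries held between 200462921 and 248426458 UMIs, with a median of 30533 to 35634 UMIs per cell that passed the filter. Member cells had a median of 43374 UMIs, Hox-negative cells 34455 and Hox3-positive cells 47507. Of 49236 distinct barcode sequences, 2777 occurred in more than 1 library. Such sequences were carried by 110 members (4.66%), 11 Hox-negative cells and 203 Hox3-positive cells, and no sequence occurred more than once among the members. A set of 365 members (15.4%) had at least 3 UMIs over a marker list of another cell type (100 for erythroid) or a high UMI total. High meant above 2 times the library's median in the Dlx gate. Such cells are called possible doublets, and made up 13.4% of Hox-negative and 24.4% of Hox3-positive cells. The comparisons with Hox-negative cells, with Hox3-positive cells and along the arch were also made without possible doublets.

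The share of members varied among libraries. Members made up 9.07% of the filtered cells in library 1, 5.07% in library 2, 7.08% in library 3, 5.71% in library 4, 4.34% in library 5 and 8.51% in library 6. The pooled share was 6.57%, with an exact binomial (Clopper-Pearson) 95% interval of 6.32% to 6.83%. Libraries 1 and 6 were highest, and their intervals did not overlap those of libraries 2, 4 and 5. These intervals cover the counting of cells only and not variation between libraries or dissections. The share of every library lay outside the pooled interval.

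**Figure D1:**
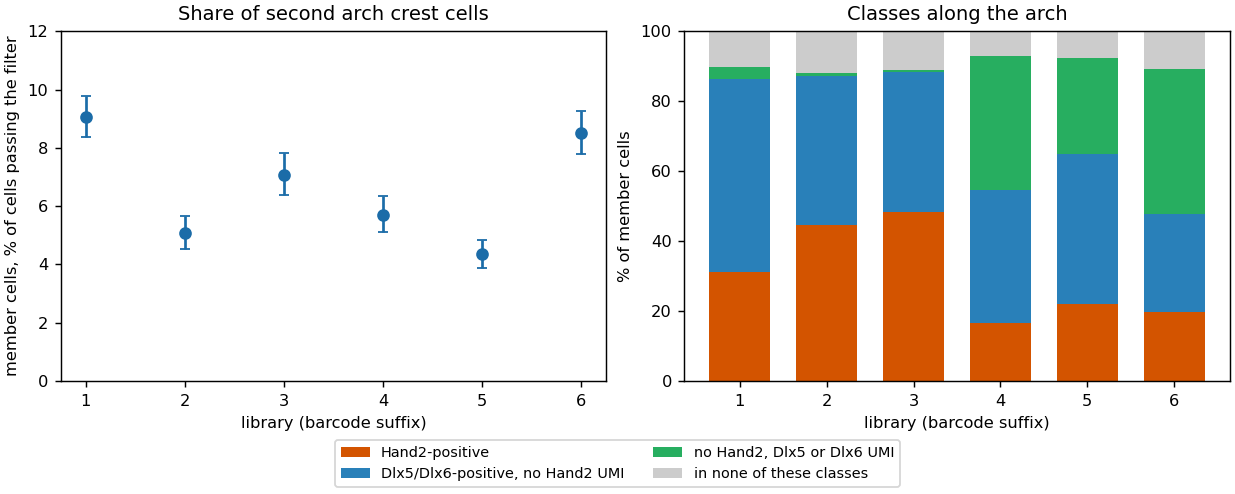
Left, member cells as a percent of cells passing the filter in each library, with exact binomial 95% intervals that cover counting error only. Right, the percent of members in each class along the arch. Members lacking Hand2, Dlx5 and Dlx6 UMIs take from 0.576% of the members in library 3 to 41.5% in library 6.

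Hox genes that the rule did not use are given as a description, since members were chosen to lack group 3 Hox UMIs and neighbouring Hox genes tend to be expressed together. Hoxb4, a group 4 gene of more posterior tissue, stood at 0.544 CPM in the members. Its level in the members was between 0.396 and 0.864 CPM in every library, against 44.6 to 59.4 CPM in Hox3-positive cells of the same libraries. Hoxd4 was at 0.439 CPM in the members against 66.9 CPM, and Hoxc4 at 0.143 against 11.6 CPM. The groups did not overlap for any of these genes. These 3 were the only ones of 14 other Hox genes to reach the minimum level defined below. They reached it only through the Hox3-positive cells, so they had to be lower in the members, and their direction supports nothing. None of the 14 reached it in the other comparisons. Hoxd4 overlaps Hoxd3 on the same strand in the annotation, so its reads may be shared with a gene of the rule. Hoxb1, a group 1 gene active earlier in the hindbrain and its crest, stood at 0.143 CPM in the members.

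**Figure D2:**
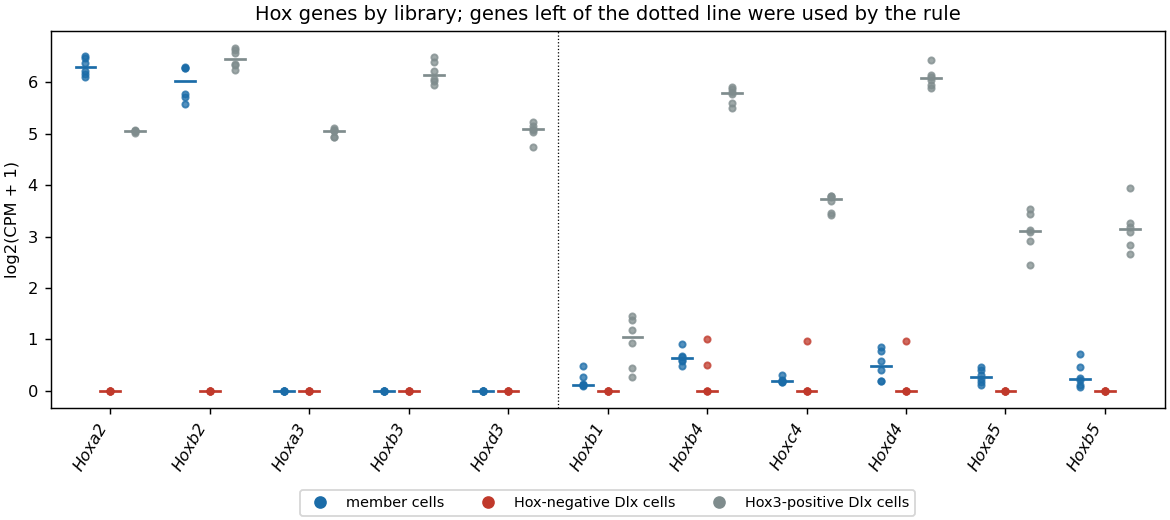
Levels of 11 Hox genes as log2(CPM + 1), with 1 point per library and class and a bar at the median over libraries. Hox-negative cells of library 5 are left out because they number 15. Hoxb4, Hoxc4 and Hoxd4 are near 0 in members and Hox-negative cells and high in Hox3-positive cells.

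Comparisons between classes used the median over libraries of log2((CPM + 1)/(CPM + 1)), called the log2 ratio below. A library entered if both classes had at least 20 cells in it. A gene was examined if its median over the libraries used reached 10 CPM in the higher class. It was called higher or lower if it differed at least 2-fold with the same sign in every library used. A gene that reached 10 CPM in only 1 class had to be higher there, so its direction supports nothing. No p-value was computed, since cells of 1 matrix are not replicates, and the 9 genes of the rule were never called.

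Compared with Hox-negative Dlx cells, second arch crest held more Pou3f3, Pantr1, Hmx1, Smoc1 and Emx2 RNA, and less Gsc, Hand2, Msx2, Dkk2, Nr5a2 and Hhip RNA. Of 8418 genes examined in 5 libraries, 46 (0.546%) were higher and 31 (0.368%) lower in the members, and the median log2 ratio over all of them was 0.00. Pou3f3, Pantr1, Nr5a2 and Hhip reached the minimum only through the class where they were high, so their direction supports nothing. Emx2 was also below the minimum in the pooled Hox-negative cells. Without library 1 the higher count was 82, and without library 4 the lower count was 17. With only cells of 15000 to 40000 UMIs the lower count was 65. Members were the deeper cells, with a median of 43374 UMIs against 34455, and the part of depth in these differences was not tested.

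Pou3f3 encodes a POU-domain transcription factor of the proximal arches. In the members it stood at 20.7 CPM in library 1, 9.24 in library 2, 8.21 in library 3, 52.9 in library 4, 45.0 in library 5 and 64.2 in library 6. In Hox-negative cells it stood at 9.56 CPM in library 1 and 29.4 CPM in library 6, and no UMI was counted in libraries 2, 3 and 4. The member value was above the Hox-negative value in each of the 5 libraries, although the ranges of the classes overlapped across libraries. The pooled levels were 33.8 and 6.04 CPM, and the log2 ratio was 3.20 (1.04 to 5.75 over the libraries). Without library 2, 3 or 4 it fell to between 2.15 and 2.23. Pou3f3 was still called without any 1 library.

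Pantr1, a long noncoding RNA gene beside Pou3f3, differed in the same direction. It stood at 29.0 CPM in the members and 4.39 CPM in Hox-negative cells, with a log2 ratio of 2.46 that was 1.82 without library 3 or 4. In the GENCODE annotation on GRCm38, Pantr1 lies at chr1:42590782-42694842 on the minus strand and Pou3f3 at chr1:42695768-42703176 on the plus strand, so the genes point away from each other. Hmx1, a homeobox gene at chr5:35389108-35399730 on the plus strand, stood at 98.7 CPM in the members and 42.8 CPM in Hox-negative cells, a pooled ratio of 2.31. Its log2 ratio of 2.41 ranged from 0.71 to 3.44 over the libraries and was 1.61 without library 4 or without library 6. Smoc1, at chr12:81026808-81186414 on the plus strand, encodes a secreted calcium-binding protein that modulates BMP signalling. It stood at 52.6 against 16.2 CPM, and its log2 ratio of 2.09 ranged from 1.11 to 2.89.

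The promoter of Pou3f3 is shown because this was the gene with the highest log2 ratio against Hox-negative cells once heart muscle genes were left out. That choice was made after its value was seen. The sequence is from RefSeq on GRCm38.p6 and runs from 250 bases before the start site to 50 after it, on the plus strand, at chr1:42695518-42695817. Capitals mark a match to the Meis motif TGACAG on either strand.
Pou3f3: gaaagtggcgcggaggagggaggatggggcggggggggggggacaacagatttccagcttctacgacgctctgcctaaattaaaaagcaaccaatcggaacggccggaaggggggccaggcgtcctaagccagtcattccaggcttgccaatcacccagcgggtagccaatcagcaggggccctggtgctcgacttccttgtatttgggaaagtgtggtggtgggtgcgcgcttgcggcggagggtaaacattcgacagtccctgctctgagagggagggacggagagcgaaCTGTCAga

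The Pou3f3 window held 1 Meis match, on the minus strand, and no match to the Pbx-Hox motif TGATNNAT on either strand. Of 32851 RefSeq promoter windows of 300 bases, 19.2% held TGACAG and 8.85% held TGATNNAT, so 1 Meis match is common and describes these letters only.

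Genes of the distal arch were among the lower ones. Hand2, which encodes a transcription factor of the distal arch, stood at 46.1, 74.5, 80.9, 24.9, 31.0 and 25.2 CPM in the members of libraries 1 to 6. In Hox-negative cells it stood at 93.6, 123, 126, 198 and 95.9 CPM in libraries 1, 2, 3, 4 and 6. Every Hox-negative value was above every member value. The log2 ratio was -1.01, with a range of -2.94 to -0.63. Without library 4 or library 6 it was -0.86, so the 2-fold call was lost, although Hand2 was lower in each library.

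Gsc, a homeobox gene of the distal first and second arches, stood at 18.5 CPM in the members against 71.4 CPM. Its member values ran from 5.43 CPM in library 4 to 42.5 CPM in library 3, and it was lower in the members in all 5 libraries (log2 ratio -1.65). Msx2, a homeobox target of BMP signalling, was at 15.9 against 51.1 CPM (log2 ratio -1.48). Nr5a2, a nuclear receptor, had the lowest log2 ratio of the named genes at -2.45, with 3.58 against 28.3 CPM. Dkk2, a secreted modulator of Wnt signalling, was at 12.5 against 38.0 CPM, and Hhip, which binds hedgehog ligands and dampens the pathway, at 7.14 against 23.9 CPM.

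The remaining named genes were of mixed kinds. Dcc, a netrin receptor, was at 92.8 CPM in the members against 17.3 CPM, and Sall3, a zinc-finger factor, at 12.9 against 3.71 CPM. Nckap5, Kcna5 and Ccser1 were also higher, with log2 ratios of 1.91, 1.67 and 1.66. Hoxb3os was higher at 41.0 against 11.3 CPM, but it overlaps Hoxb3 and Hoxb2 on the opposite strand. The strand used in counting is not given in the sources used here, so reads of Hoxb3os and of a gene of the rule may not be told apart. Ndnf, Cysltr1, Tenm2, Sct, Igf1, Nos1ap, Unc5b, Pdgfc, Rasgef1b and Rarb were lower, with log2 ratios between -2.07 and -1.27. Dcc, Sall3, Kcna5, Ccser1, Ndnf, Cysltr1, Sct, Unc5b, Rasgef1b and Rarb reached the minimum only through the class where they were high. Their direction supports nothing. Some calls of this paragraph rest on single libraries. Rarb was not called without library 3, 4 or 6, Nos1ap and Sall3 without library 4 or 6, and Unc5b without library 1 or 4. The log2 ratio of Dcc was 1.86, and 2.66 without library 1 or 6.

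Heart muscle genes were also among the highest against Hox-negative cells, and few cells carried them. Myl7, Tnnt2, Tnnc1, Actc1 and Myl4 had log2 ratios of 2.53 to 3.43. In the members, 84.2% of the 22755 UMIs of the cardiomyocyte marker list lay in 20 cells, and 53.0% of members had no such UMI. Without possible doublets, these 5 genes and Unc5b were no longer called, and 24 of the 30 named genes were still called. That comparison also had 4 libraries in place of 5, since 187 Hox-negative cells were left. In it Myl7 stood at 6.63 CPM in the members and 8.82 CPM in Hox-negative cells, against 144 and 62.6 CPM over all cells. With the cells kept and any 1 of the 5 libraries left out, the log2 ratio was 2.20 to 3.43 for Myl7 and 1.56 to 3.13 for Tnnc1. Markers of other cells differed too. The summed level of the 5 erythroid markers ran from 139 to 3473 CPM over libraries in the members and from 75.2 to 12204 CPM in Hox-negative cells. That of the 5 heart field mesoderm markers ran from 12.7 to 22.8 CPM against 19.2 to 62.8 CPM, and that of the 5 branchiomeric muscle markers from 0.938 to 7.62 CPM against 0.00 to 42.8 CPM, with Myod1 at 0 in Hox-negative cells. That of the 5 paraxial mesoderm markers ran from 12.1 to 46.2 CPM against 1.90 to 24.3 CPM. The part of these cells in the differences was not tested, beyond the calls lost above.

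The share of cells with distal genes was also set out for members and Hox-negative cells. Each cell was thinned at random to 10000 UMIs to set depth aside, which left out 11 members and 7 Hox-negative cells. After thinning, 22.5% of members had a Hand2 UMI (exact binomial 95% interval 20.8% to 24.2%), against 56.0% of Hox-negative cells (49.0% to 62.8%). Unthinned, the shares were 37.1% and 74.1%. The pooled shares do not hold alike in each library. The share of cells with at least 2 Hand2 UMIs, unthinned, was 31.2%, 44.7%, 48.4%, 16.7%, 21.9% and 19.6% in the members of libraries 1 to 6. In Hox-negative cells it was 42.9% of 63 cells, 45.5% of 22, 69.2% of 65, 88.5% of 26, 86.7% of 15 and 52.0% of 25. In library 2 the shares were nearly the same, and its Hox-negative cells were the shallower, with a median of 26566 against 45608 UMIs. A Dlx5 or Dlx6 UMI was found after thinning in 62.4% of members and 73.2% of Hox-negative cells, and unthinned in 79.9% and 89.8%. For background, thinned erythroid-gated cells, which should lack these genes, had a Hand2 UMI in 1.34% and a Dlx5 or Dlx6 UMI in 0.805% (median 65664 UMIs before thinning). Hand2 was also found in another cell type. Of thinned endothelium-gated cells, 47.8% had a Hand2 UMI and 1.76% a Dlx5 or Dlx6 UMI (40902 UMIs before thinning). A Pou3f3 UMI was found after thinning in 19.7% of members, 3.83% of Hox-negative, 1.37% of Hox3-positive and 0.134% of erythroid-gated cells.

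The comparison was repeated within Hand2-positive cells, those with at least 2 Hand2 UMIs, in the 3 libraries with enough of them. They are a part of the cells compared above, so a gene called in both is no independent support. There 8510 genes were examined, and 65 (0.764%) were higher and 23 (0.270%) lower in the members, of which 19 and 6 had been called over all cells. Tenm2 (log2 ratio -1.58), Hhip (-1.54), Nr5a2 (-1.24), Rarb (-1.20) and Robo2 were lower there too. Etv4 (1.52), Hey1 (1.31), Dcc (1.28) and Dusp6 (1.05) were higher there too. Pou3f3, Hmx1, Smoc1, Emx2, Gsc, Msx2 and Dkk2 were not called within these cells. Their log2 ratios were 1.34, 3.12, 0.56, 1.02, -0.44, -0.83 and -0.67.

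Levels were also set out by the number of Hoxa2 and Hoxb2 UMIs per cell, which is the measure that chose the members. Hand2 stood at 126 CPM in cells with 0 such UMIs, 88.0 with 1, 82.9 with 2 and 25.0 with 10 or more. Gsc stood at 71.4, 40.2, 36.6 and 6.22 CPM over the same classes, and Dlk1, an imprinted gene for a Delta-like protein, at 483, 271, 277 and 96.2 CPM. The level was highest without Hox UMIs and lowest with 10 or more for all 3 genes. Pou3f3 stood at 6.04, 14.2, 16.7 and 55.9 CPM, Smoc1 at 16.2, 33.8, 40.9 and 62.7 CPM, and Emx2 at 7.14, 11.9, 12.7 and 40.4 CPM, which is the opposite order. Dlx5 showed no such order, with 95.1, 99.9, 104 and 97.0 CPM. These values carry no test, since a cell can have more Hox UMIs because it has more UMIs in all. Except for Dlx5, these genes were already called between cells with 0 such UMIs and the members, so the order of the end classes supports nothing. The classes also mix the libraries differently. Cells with 0 such UMIs numbered 63, 22, 65, 26, 15 and 25 in libraries 1 to 6, and members 584, 304, 347, 324, 310 and 494. The part of the libraries in this order was not tested.

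**Figure D3:**
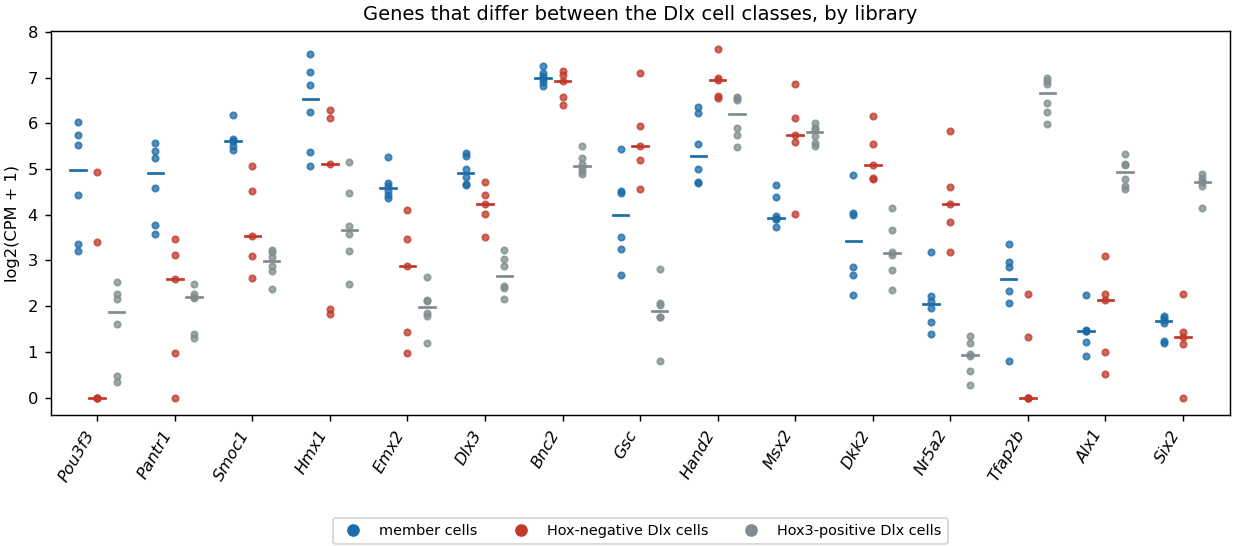
Levels of 15 genes as log2(CPM + 1) in members, Hox-negative and Hox3-positive Dlx cells, with 1 point per library and a bar at the median over libraries. Hox-negative cells of library 5 are left out because they number 15. Pou3f3, Pantr1, Smoc1 and Emx2 are highest in the members, Gsc and Nr5a2 are highest in Hox-negative cells, and Tfap2b, Alx1 and Six2 are highest in Hox3-positive cells.

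Compared with Hox3-positive Dlx cells, which stand for crest of more posterior arches, the members held more Pou3f3, Smoc1, Emx2, Hmx1 and Dlx3 RNA and less Tfap2b, Alx1, Six2, Rarb and Crabp1 RNA. Of the genes just named, only Hmx1 and Crabp1 reached the minimum in both classes. The others reached it only through the class where they were high, so their direction supports nothing. Of 8403 genes examined in all 6 libraries, 63 (0.750%) were higher and 139 (1.65%) lower, with a median log2 ratio of 0.01 over all. This comparison shares the member cells with the one above, so the values are given side by side and no overlap was drawn. Without possible doublets, 28 of the 30 named genes were still called, and the neurofilament gene Nefm was among those lost.

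Dlx3, a distal Dlx gene, stood at 31.1, 38.0, 39.9, 24.1, 27.5 and 24.5 CPM in the members of libraries 1 to 6. In Hox3-positive cells it stood at 6.37, 7.23, 8.39, 4.29, 4.41 and 3.47 CPM. The classes did not overlap, and the log2 ratio was 2.24. Against Hox-negative cells Dlx3 was not called (log2 ratio 0.64).

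Pou3f3 was at 2.52 CPM in Hox3-positive cells (log2 ratio 3.13), Smoc1 at 6.85 CPM (2.81), Emx2 at 2.96 CPM (2.64) and Hmx1 at 13.9 CPM (2.53). Each of these was higher in the members in 6 of 6 libraries. Gsc took a middle place. It stood at 2.81 CPM in Hox3-positive cells, 18.5 CPM in the members and 71.4 CPM in Hox-negative cells. Barx1, a homeobox gene of arch mesenchyme, was at 313 CPM in the members against 136 CPM (log2 ratio 1.20). Bnc2, a zinc-finger gene, was at 128 against 34.5 CPM (1.87). Their Hox-negative levels were 242 and 118 CPM, and neither was called there.

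Tfap2b, an AP-2 transcription factor of neural crest, was the lowest named gene outside the Hox clusters. It stood at 3.17, 4.04, 0.741, 9.32, 6.20 and 6.87 CPM in the members of libraries 1 to 6, against 62.3 to 126 CPM in Hox3-positive cells (log2 ratio -4.02). Its paralogue Tfap2a differed less, at 20.1 against 32.8 CPM, and was not called. Alx1, a homeobox gene of frontonasal and periocular crest, was at 1.78 against 30.2 CPM (log2 ratio -3.49), and Six2 at 1.93 against 24.8 CPM (-3.02). Rarb, a retinoic acid receptor gene that is itself induced by retinoic acid, was at 6.93 against 42.6 CPM (-2.44). Crabp1, which encodes a cytoplasmic retinoic acid binding protein, was at 593 against 1338 CPM (-1.07). Both retinoid genes were lower in the members in 6 of 6 libraries. The other named genes were Trpm1, Adarb2, Pcdh19, Col9a1, Hoxaas2 and Dlx4os on the higher side (log2 ratios of 1.67 to 2.50), and Prdm1, Phactr3, Slitrk6, Samd5, Ano4, Sgcz and Hoxaas3 on the lower side (-3.48 to -2.90). Trpm1 was not called without library 1, 2 or 3. Hoxaas2 and Hoxaas3 overlap Hoxa3, a gene of the rule, and Dlx4os overlaps Dlx4, each on the opposite strand, so reads may be shared there.

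Markers of other cells moved with this comparison. The summed level of the 5 crest and glia markers ran from 4.69 to 14.6 CPM over the libraries in the members and from 14.4 to 66.0 CPM in Hox3-positive cells. That of the 5 neuron markers ran from 11.3 to 18.6 CPM and from 17.4 to 87.9 CPM. Of the neuron markers, 1 reached 10 CPM in the members and 3 did in Hox3-positive cells. Other lists were low in the members, with summed levels over libraries of 3.14 to 15.6 CPM for 6 endothelium, 3.88 to 5.92 CPM for 5 myeloid, 13.2 to 31.2 CPM for 5 epithelium and 0.938 to 7.62 CPM for 5 branchiomeric muscle markers. The myeloid marker Ptprc was at 0. The 5 erythroid markers ran from 139 to 3473 CPM in the members and from 56.4 to 6375 CPM in Hox3-positive cells. Paraxial mesoderm markers ran from 12.1 to 46.2 CPM against 51.7 to 121 CPM, heart field mesoderm markers from 12.7 to 22.8 CPM against 37.8 to 61.1 CPM, and smooth muscle markers from 34.9 to 223 CPM against 85.5 to 278 CPM. Epicardium markers ran from 73.3 to 138 CPM against 28.6 to 79.8 CPM, most of it Mab21l2. Their part in the differences was not tested, beyond the loss of Nefm given above.

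Members varied along the arch. Classes were set by Hand2, Dlx5 and Dlx6, the genes that mark distal position. Of the members, 705 members (29.8%) were Hand2-positive, 986 (41.7%) had no Hand2 UMI and at least 2 of Dlx5 or Dlx6, and 438 (18.5%) had no UMI of the 3 genes. These are called Hand2-positive, Dlx5/Dlx6-positive and Dlx5/Dlx6-negative. The classes are ranges of UMI counts and not cell types, and the last can hold shallow cells, since its median was 37185 UMIs against 47137 in the Hand2-positive class.

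The Dlx5/Dlx6-negative class was unevenly spread over libraries. It held 19 members (3.25%) in library 1, 3 (0.987%) in library 2 and 2 (0.576%) in library 3. In library 4 it held 124 members (38.3%), in library 5 85 (27.4%) and in library 6 205 (41.5%). The Hand2-positive share was 31.2% to 48.4% in libraries 1 to 3 and 16.7% to 21.9% in libraries 4 to 6. The libraries with few Dlx5/Dlx6-negative members were those with the larger Hand2-positive share. No library is paired with a sample, so whether these shares follow the treatment was not tested.

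Hand2-positive members held more Dlk1, Msx1, Msx2, Gsc, Dlx3, Unc5c and Epha3 RNA than Dlx5/Dlx6-negative members, and less Pou3f3, Cyp26a1, Emx2, Meox1 and Dcc RNA. In the 3 libraries with at least 20 cells of both classes (4, 5 and 6), 8454 genes were examined. Of these, 225 (2.66%) were higher and 122 (1.44%) lower in Hand2-positive than in Dlx5/Dlx6-negative members, with a median log2 ratio of -0.02 over all. With only cells of 15000 to 40000 UMIs the lower count was 272. Hand2, Dlx5 and Dlx6 chose the classes and were not called. Of the genes named at the start of this paragraph, only Unc5c, Epha3 and Dcc reached the minimum in both classes. The others reached it only through the class where they were high, so their direction supports nothing. Levels along the arch given without a library are pooled over all 6 libraries, while log2 ratios and calls are from libraries 4, 5 and 6. Hand2-positive members numbered 182, 136, 168, 54, 68 and 97 in libraries 1 to 6, so their pooled levels rest mostly on libraries outside the comparison.

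Dlk1 stood at 367, 441 and 331 CPM in Hand2-positive members of libraries 4, 5 and 6, and at 9.33, 10.1 and 7.59 CPM in Dlx5/Dlx6-negative members. The classes did not overlap, and the log2 ratio was 5.28. Msx1 stood at 127 against 3.64 CPM (log2 ratio 4.42) and Msx2 at 38.4 against 2.09 CPM (3.62). Unc5c, a netrin receptor gene, was at 589 against 27.6 CPM (4.56), and Epha3, an ephrin receptor gene, at 347 against 22.4 CPM (3.77). Gsc was at 39.8 against 0.418 CPM, the lower value resting on 7 UMIs. Hand1, the paralogue of Hand2, was at 13.6 against 0.119 CPM, where 2 UMIs were counted, a pooled ratio of 114 with a counting interval of 31.3 to 943.

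The lower genes were those of members without Hand2, Dlx5 and Dlx6. Pou3f3 stood at 107, 134 and 134 CPM in Dlx5/Dlx6-negative members of libraries 4, 5 and 6, and at 4.37, 6.30 and 0.994 CPM in Hand2-positive members. The log2 ratio was -4.33, and -5.21 to -4.27 with 1 library left out. Cyp26a1, which encodes an enzyme that degrades retinoic acid, was at 33.3, 62.5 and 39.6 CPM against 1.46, 2.83 and 0.597 CPM (-4.05). Neither gene's classes overlapped. Dcc was at 340 CPM in the Dlx5/Dlx6-negative class against 16.0 CPM, and Ntn1, which encodes its ligand netrin 1, at 26.1 against 1.41 CPM. Meox1, a homeobox gene also of paraxial mesoderm, was at 63.7 against 3.93 CPM. The other named lower genes were Pantr1, Gabrg3, Ngfr, Crym, Pou3f1, Ptprm, Ebf2, Gpc5 and Cdh19, with log2 ratios of -4.08 to -2.47. Markers of other cells moved with this class. In Dlx5/Dlx6-negative members the 5 crest and glia markers summed to 18.8 to 30.9 CPM over libraries 4 to 6, against 2.92 to 8.82 CPM in Hand2-positive members over all 6 libraries, where Foxd3 was at 0. The 5 paraxial mesoderm markers summed to 51.1 to 92.2 CPM against 5.70 to 17.1 CPM, with Meox1 the highest in both. The 5 epicardium markers summed to 24.4 to 30.2 CPM against 106 to 135 CPM, with Mab21l2 the highest in both, and the 5 epithelium markers to 5.93 to 10.7 CPM against 15.5 to 124 CPM. The 5 heart field mesoderm markers summed to 5.45 to 20.5 CPM against 20.5 to 48.1 CPM, with Foxf1 the highest of them in Hand2-positive members. Their part in the differences was not tested.

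The Dlx5/Dlx6-positive class lay at the extreme for some genes. In Dlx5/Dlx6-positive members Smoc1 stood at 99.2 CPM, against 8.72 CPM in the Hand2-positive and 34.8 CPM in the Dlx5/Dlx6-negative class. Barx1 stood at 437, 255 and 87.0 CPM in the same order of classes, Emx2 at 46.3, 2.55 and 25.4 CPM, and Dlx3 at 43.5, 28.5 and 0.896 CPM. Pou3f3 was intermediate at 25.7 CPM. These pooled values span different libraries, since the Dlx5/Dlx6-negative class came mostly from libraries 4, 5 and 6, but by library the Smoc1 values of the 3 classes did not overlap.

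**Figure D4:**
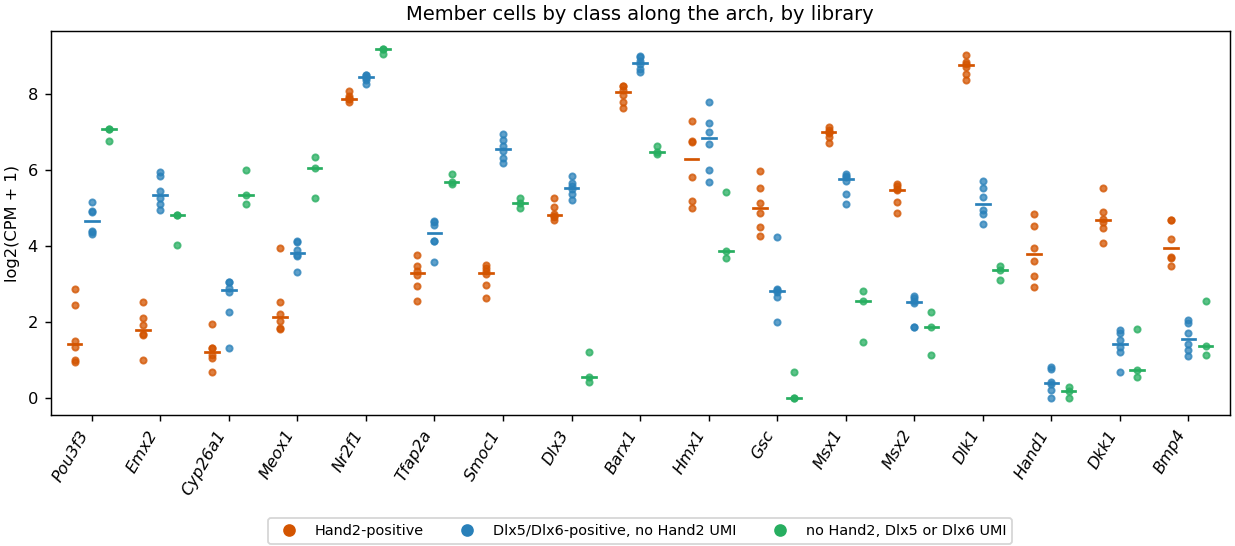
Levels of 17 genes as log2(CPM + 1) in 3 classes of member cells, with 1 point per library that has at least 20 cells of the class and a bar at the median over those libraries. Pou3f3, Cyp26a1 and Meox1 are highest without Hand2, Dlx5 and Dlx6, Smoc1 and Barx1 are highest in the class with Dlx5 or Dlx6 alone, and Dlk1, Msx1 and Gsc are highest in Hand2-positive cells.

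Hoxa2 and Hoxb2 chose the members, so their pooled levels in these classes are a description. The rule asks for at least 2 of their UMIs in every cell, whatever its depth. Median depth was 37185 UMIs in the Dlx5/Dlx6-negative, 43404 in the Dlx5/Dlx6-positive and 47137 in the Hand2-positive class. The Dlx5/Dlx6-negative class also came mostly from libraries 4, 5 and 6, where Hoxb2 was higher over all members. The part of depth and libraries in these levels was not tested. Hoxb2 stood at 105.1 CPM in the Dlx5/Dlx6-negative class, 60.8 CPM in the Dlx5/Dlx6-positive class and 46.2 CPM in the Hand2-positive class. Hoxa2 stood at 89.9, 91.9 and 57.2 CPM in that order. Meis2, which encodes a cofactor of Hox proteins, was at 1207, 895 and 675 CPM and was called lower in Hand2-positive than in Dlx5/Dlx6-negative members (log2 ratio -1.01), a call lost without library 5 or 6. It was the only one of the 8 Hox cofactor genes examined that was called in any of the 3 comparisons, where the list's medians were 0.02, 0.08 and 0.02.

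Smooth and heart muscle genes had the highest log2 ratios of the Hand2-positive class beside Dlx6os1 and Hand2os1, at 6.45 for Acta2, 5.59 for Tagln, 5.58 for Actc1 and 5.42 for Myl7. Acta2 stood at 571 and 373 CPM in libraries 4 and 6 but at 11.3 CPM in library 5, and its log2 ratio was 3.97 without library 4 and lower still without library 6. In this class 93.1% of the cardiomyocyte-marker UMIs lay in 20 cells, and 5 of the 6 cardiomyocyte markers reached 10 CPM. Their summed level ran from 40.6 to 1043 CPM over libraries, against 9.60 to 19.3 CPM in the Dlx5/Dlx6-negative class. Possible doublets made up 21.3% of Hand2-positive and 7.53% of Dlx5/Dlx6-negative members. Without possible doublets, 21 of the 30 named genes were still called. The 9 lost were Acta2, Tagln, Actc1, Myl7, Hspb1, Ttn, Tnni1, Tbx20 and Tnnt2, and the higher count was 138. Rgs5, a pericyte gene, was still called, with a log2 ratio of 3.01 without those cells and 4.69 over all cells. Over all cells it was 3.92 without library 4. Dlx6os1 and Hand2os1 were also higher, but they overlap Dlx6 and Hand2 on the opposite strand. The strand used in counting is not given in the sources used here, so reads may be shared.

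The other genes of arch patterning were read from lists, each given as its count of calls. Over all genes examined, 0.546% were higher and 0.368% lower against Hox-negative cells. The shares were 0.750% and 1.65% against Hox3-positive cells, and 2.66% and 1.44% along the arch. The list of first arch identity genes is given by member only. Of its genes Gsc was lower than in Hox-negative cells, Barx1 and Gsc were higher and Alx1 and Six2 lower than in Hox3-positive cells, and Barx1, Gsc and Foxd1 were higher and Lhx8 lower distally. Of 13 dorsoventral genes, Pou3f3 and Emx2 were higher and Hand2 and Msx2 lower than in Hox-negative cells (median -0.04), with Hand2 dependent on libraries 4 and 6 as given above. Of 13 against Hox3-positive cells, Dlx3, Pou3f3, Emx2 and Nr2f1 were higher and Hand1, Msx2 and Foxf1 lower (median 0.18), of which Nr2f1 was not called without library 1, 3 or 6. Along the arch, 5 of 10 were higher distally (Dlx3, Hand1, Msx1, Msx2 and Foxf1) and 3 lower (Pou3f3, Emx2 and Nr2f1), with a median of 1.62. There Dlx3, Hand1, Msx1, Msx2, Pou3f3 and Emx2 reached the minimum only through the class where they were high. Dlx3, Pou3f3 and Emx2 did so against Hox3-positive cells too. These directions support nothing, and the classes along the arch were themselves set by Hand2, Dlx5 and Dlx6 of this list.

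Crest mesenchyme genes were called in each comparison, at 2 of 14 against Hox-negative cells, 4 of 15 against Hox3-positive cells and 6 of 15 along the arch. Each is a larger share than over all genes examined. The list was chosen with earlier results known and the comparisons share member cells, so these shares are a description. Tfap2b against Hox3-positive cells (4.88 against 100 CPM) reached the minimum only through the class where it was high. So did Msx1 (127 against 3.64 CPM), Msx2 and Meox1 (3.93 against 63.7 CPM) along the arch, and these directions support nothing. Of the 14, Tfap2a was higher and Msx2 lower than in Hox-negative cells (median 0.15), and Tfap2a was not called without library 3, 4 or 6. Of 15 against Hox3-positive cells, Twist2 was higher and Tfap2b, Msx2 and Meox1 lower (median -0.54). Along the arch, Prrx2, Msx1 and Msx2 were higher distally and Tfap2a, Tfap2b and Meox1 lower (median -0.29), and Tfap2b was not called without library 4. Prrx1, a homeobox gene of limb and craniofacial mesenchyme, stood at 276 CPM over all members, with 163 CPM in the Dlx5/Dlx6-positive class and 425 CPM in the Hand2-positive class. Pdgfra, the receptor gene that marks most crest mesenchyme, was at 75.4 CPM in the members, 62.3 in Hox-negative and 84.3 in Hox3-positive cells.

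Endothelin signals from epithelium to crest and sets distal arch identity. The receptor gene Ednra stood at 34.5 CPM in the members, 24.3 CPM in Hox-negative and 30.3 CPM in Hox3-positive cells. It was lower in Hand2-positive than in Dlx5/Dlx6-negative members, at 22.5 against 47.3 CPM (log2 ratio -1.45). The ligand gene Edn1 was at 0.831 CPM in the members. Of 6 endothelin genes examined in each comparison, Mef2c was lower than in Hox3-positive cells, Ednra lower distally, and no other was called, with medians of 0.04, -0.15 and -0.06 for the 3 comparisons in the order above. Of 6 forkhead genes, none was called against Hox-negative cells (median -0.37), Foxf1 was lower against Hox3-positive cells (0.05), and Foxd1 and Foxf1 were higher distally (0.22).

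Retinoic acid, FGF and hedgehog lists are short, and 1 call in any of them exceeds the share over all genes examined. Against Hox-negative cells, of 8 retinoid genes Rarb was lower (median -0.14), of 10 FGF pathway genes Dusp6 and Etv4 were higher (0.39), and of 9 hedgehog genes Hhip was lower (-0.17). Dusp6 and Etv4 are both transcriptional targets of FGF signalling. Dusp6 stood at 49.2 against 21.3 CPM and Etv4 at 19.5 against 8.79 CPM, each higher in 5 of 5 libraries. Neither call held without library 3 or 4, and that of Etv4 was also lost without library 6. Against Hox3-positive cells, Crabp1 and Rarb of 8 retinoid genes were lower (median -0.32), Spry1 of 9 FGF genes was lower (-0.27) and Gas1 of 7 hedgehog genes was higher (0.10). Along the arch, Rarb was among the higher and Cyp26a1 the only lower of 9 retinoid genes (0.03), Dusp6 was lower among 10 FGF genes (-0.28), and none of 7 hedgehog genes was called (0.36). The calls of Rarb (without library 4 or 5) and Dusp6 (without 5 or 6) along the arch also rest on single libraries.

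Along the arch, of 9 BMP genes, the ligand gene Bmp4 and the inhibitory gene Smad6 were higher distally (median 0.62). Over all genes examined there, 2.66% were higher and 1.44% lower. In libraries 4, 5 and 6 Bmp4 stood at 11.7, 10.1 and 12.1 CPM against 1.56, 4.88 and 1.19 CPM. Its log2 ratio was 2.31, and 1.61 without library 6. Of 14 Wnt genes, Wnt5a, Dkk1, Dkk2, Rspo2 and Tcf7 were higher distally and Fzd7, Sfrp1 and Ror1 lower (0.17). Smad6 was not called without library 4 or 6, Dkk2 and Ror1 without library 6, and Rspo2 without library 5. Dkk1, a secreted Wnt antagonist, was at 24.4 against 1.49 CPM. Of 7 Notch genes, Heyl was lower distally (-0.17). Against Hox-negative cells no BMP gene of 9 was called (-0.39), Dkk2 of 12 Wnt genes was lower (0.22) and Hey1 of 6 Notch genes was higher (0.49). Hey1, a Notch target, stood at 30.8 against 10.6 CPM. Against Hox3-positive cells, Bmpr1b was higher and Bmper lower of 10 BMP genes (-0.78), Axin2 higher and Dkk1 lower of 12 Wnt genes (0.15), and none of 6 Notch genes was called (0.07).

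Against Hox3-positive cells, 5 guidance genes were lower in the members. These were Sema3d, Plxna2, Nrp1, Robo2 and Slit3 of 19 examined, and none was higher (median -0.14). Over all genes examined there, 1.65% were lower and 0.750% higher. The list was chosen with earlier results known, so its count is a description. Sema3d was not called without library 4, 5 or 6. Robo2, a receptor for Slit proteins, stood at 41.6 CPM in the members, 168 CPM in Hox3-positive cells and 98.8 CPM in Hox-negative cells, where it was the only guidance gene of 19 called (median -0.09). Along the arch Epha3, Epha7, Efnb2, Sema3a and Slit3 of 18 were higher distally and Slit2 was lower (0.25), the last not without library 5.

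Of the skeletal and matrix genes, Sox9, the regulator of cartilage commitment, stood at 70.8 CPM in the members, 46.4 in Hox-negative and 63.0 in Hox3-positive cells. Runx2, the regulator of bone formation, was at 3.78 CPM and below the minimum. Of 6 skeletal genes none was called against Hox-negative cells (median 0.18), of 7 Col1a1 was lower against Hox3-positive cells (0.10), and Pth1r of 7 was higher distally (0.49). Of 12 matrix genes none was called against Hox-negative cells (0.16), of 13 Col1a1 was lower against Hox3-positive cells (-0.09), and of 14 Postn and Itga8 were lower distally (-0.30), Postn not without library 5.

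Glucose-handling and redox genes, which bear on the study's topic, were not called in any comparison. Over all genes examined, 0.546% were higher and 0.368% lower against Hox-negative cells. The shares were 0.750% and 1.65% against Hox3-positive cells, and 2.66% and 1.44% along the arch. At such shares, no call in a list this short says little about its genes. Of 14, 13 and 13 glucose-handling genes examined, none was called, with medians of 0.07, -0.11 and 0.13 for the comparisons with Hox-negative cells, with Hox3-positive cells and along the arch. Slc2a1, the main embryonic glucose transporter gene, stood at 55.4 CPM in the members, with 45.0 to 63.0 CPM over libraries, against 46.5 CPM in Hox-negative and 47.1 CPM in Hox3-positive cells. Of 12, 12 and 13 hypoxia and redox genes none was called, with medians of 0.06, -0.04 and -0.03. Of 20 cell cycle genes in each comparison, Cdkn1c was higher distally and no other was called, with medians of 0.10, 0.03 and 0.03. Cdkn1c stood at 504, 176 and 495 CPM in Hand2-positive members of libraries 4, 5 and 6, against 209, 171 and 203 CPM in Dlx5/Dlx6-negative members, so the classes hardly differed in library 5, and the call was lost without library 4 or 6. Libraries 4 and 6 were also those with high Acta2 in the Hand2-positive class. Top2a, which is expressed in dividing cells, stood at 433 CPM in the members, 409 in Hox-negative and 440 in Hox3-positive cells. With no sample known for any library, these values say nothing of maternal diabetes.

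Against all other filtered cells the members were led by the same positional genes, as a description of the gate. Pou3f3 stood at 33.8 against 1.26 CPM, Hmx1 at 98.7 against 6.11 CPM, Dlx3 at 30.6 against 2.58 CPM and Barx1 at 313 against 44.2 CPM. Each was higher in 6 of 6 libraries.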

How the data were processed

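The members, gene lists and comparisons were chosen with earlier results of these data known. The authors deposited 1 matrix of whole UMI counts (32285 genes, 53362 barcodes) in Cell Ranger format. The submitters' processing notes name CASAVA 1.8, Cell Ranger 5.0.0, Seurat 4 and the build mm10. How cells were called, whether doublets were removed and which strand was counted is not given in the sources used here. The labels' descriptions name a chromatin assay, while titles, kit and library source name RNA, and the counts were read as RNA.

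Barcode suffixes 1 to 6 were taken as libraries and paired with no sample. No doublet caller was run. As an alternative, cells above 2 times their library's median UMIs in the Dlx gate, or with 3 or more UMIs over a marker list of another cell type (100 for erythroid), were left out. Background gates asked for 20 Tnnt2 UMIs (cardiomyocyte), 6 of Cdh5 and Pecam1 (endothelium) or 1000 embryonic globin UMIs (erythroid). UMIs were summed per class and library and scaled to CPM from the deposited counts. A pseudocount of 1 CPM, a minimum of 10 CPM and a 2-fold difference were used. Intervals are exact at 95% and cover counting error only. Named genes were the 15 highest and 15 lowest called genes of each comparison, without the rule's genes, Xist, Tsix, Ddx3y, Eif2s3y, Kdm5d, Uty, mitochondrial and unnamed genes, and called genes of 19 lists, or else up to 4 of a list with the highest CPM. A few items are not reported here. The procedure was tested on simulated data. Of the gene IDs, 32158 were found in GENCODE M21, the source of gene coordinates. Python 3.11.15, NumPy 2.4.6, SciPy 1.17.1, pandas 2.3.3 and matplotlib 3.10.9 were used.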

Additional observations from a re-analysis of the deposited data

How the results depend on the processing

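No paired analysis was possible because the barcode suffixes are not paired with the samples that carry replicate numbers, so neither the comparison of streptozotocin with vehicle nor its replicate block was run. The class comparisons set cells of the same library against each other, and were left without a test because the pooled matrix was treated as 1 sample. Within Dlx5/Dlx6-positive and Dlx5/Dlx6-negative cells the comparison with Hox-negative cells could not be run, since no library had 20 Hox-negative cells there. The Hox-negative class is small, so its calls depend most on single libraries.

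Against Hox-negative cells, the 46 higher genes became 27 with a pseudocount of 5 CPM and 124 with no filter on low values, and 35 to 82 with 1 library left out. The 31 lower genes became 20 without shared barcodes, 65 with only cells of 15000 to 40000 UMIs, 20 with a minimum of 20 CPM and 85 with UMIs pooled over libraries, and 17 to 43 with 1 library left out. Against Hox3-positive cells, the 63 higher genes ranged from 57 to 76 with 1 library left out. The 139 lower genes became 84 at 20 CPM and 273 with no filter, and ranged from 131 to 152. Along the arch, the 225 higher genes became 138 without possible doublets, 144 at 20 CPM and 426 with no filter (186 to 274 with 1 library left out). The 122 lower genes became 272 with 15000 to 40000 UMIs, 78 at 20 CPM and 252 with no filter (115 to 126).

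The member share of 6.57% was 5.41% with the filter of 1000 genes and 20% mitochondrial UMIs, 4.70% with at least 4 Hox UMIs, 5.56% without possible doublets and 6.03% to 7.12% with 1 library left out. With at least 4 Hox UMIs, 18.6% of members had a Hand2 UMI and 60.3% a Dlx5 or Dlx6 UMI. Without thinning, Hand2 was found in 37.1% of members and 74.1% of Hox-negative cells, and Dlx5 or Dlx6 in 79.9% and 89.8%. At 5000 UMIs these were 15.1%, 37.0%, 45.2% and 54.6%. With 1 library left out the ranges were 19.5% to 24.8%, 52.4% to 61.3%, 58.4% to 67.2% and 71.7% to 76.7%.

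Without possible doublets the log2 ratio against Hox-negative cells changed sign for Myl7 (-0.47), Tnnc1 (-0.13) and Myl4 (-0.32), and along the arch for Acta2 (-0.21), Myl7 (-0.94) and Tnnt2 (-0.22). With only 15000 to 40000 UMIs it changed sign for Tnnc1 against Hox-negative cells (-0.18), and for Myl7 (-0.66) and Tnnt2 (-0.85) along the arch. The cause was not tested. Of 480 values of named genes under alternatives in each comparison, 436, 432 and 401 moved by less than the counting interval of the pooled ratio, for the Hox-negative, Hox3-positive and arch comparisons.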

Other observations

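The share of members with no Hand2, Dlx5 or Dlx6 UMI fell into separate ranges over the 6 libraries, which have no known sample. It was 3.25% in library 1 (exact binomial 95% interval 1.97% to 5.03%), 0.987% in library 2 (0.204% to 2.86%), 0.576% in library 3 (0.0699% to 2.07%), 38.3% in library 4 (33.0% to 43.8%), 27.4% in library 5 (22.5% to 32.7%) and 41.5% in library 6 (37.1% to 46.0%). In Hox3-positive cells of the same libraries the share was 11.0%, 18.8%, 16.2%, 39.9%, 26.8% and 33.7%, so libraries 4, 5 and 6 were again the highest, with a narrower gap. In Hox-negative cells, which numbered 15 to 65 a library, it was 4.76%, 4.55%, 1.54%, 7.69%, 0.00% and 16.0%, with library 5 the lowest (0 of 15 cells, exact upper bound 21.8%). Median depth of the members was 43310, 45608, 45448, 40479, 39366 and 44741 UMIs in libraries 1 to 6. Pou3f3 in the members stood at 20.7, 9.24, 8.21, 52.9, 45.0 and 64.2 CPM over the same libraries, and Hoxb2 at 51.7, 53.8, 46.7, 76.4, 77.3 and 76.9 CPM. A cluster with a like spread over libraries was already known from earlier work on these data, so this is no independent support for it.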
